A study of Homo sapiens with 24 samples.

Results

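UGT2B17, UGT2B15, UGT2B10, UGT2B7, UGT2B11 and UGT2B28 are 6 UDP-glucuronosyltransferase genes that lie together on chromosome 4. They were chosen as a set by a response in these same arrays, raised by an siRNA against EZH2 and lowered by the EZH2 inhibitor EPZ6438, which not every member showed. Every probe that the platform annotation assigns to them was taken, 11 of 47311 probes on the array. They are 6 of 20042 named genes on the array. All probes were used because the transcripts are alike in sequence and a probe for one gene may bind another. A filter that asked for detection (p under 0.05) on at least 3 of 24 arrays kept 9 of the 11 probes, which covered 5 of the 6 genes, among 26278 probes and 13789 named genes kept in all. RNA was measured on 24 Illumina HT-12 bead arrays from LNCaP, a human prostate cancer line that depends on androgen, and from C4-2B, a derivative of LNCaP that grows with little androgen. The medium of all 8 groups was RPMI containing 10% FBS (fetal bovine serum). In 1 experiment the cells received DMSO alone or EPZ6438, also called tazemetostat, which blocks the methyltransferase activity of EZH2, at 1 µM for 3 days, and in another they were transfected with siControl or with siEZH2 for 3 days, the labels naming 1 siRNA against the coding sequence. Each group held 3 arrays. The labels number the replicates and do not say that they were separate cultures, so p-values and SEs reflect only array-to-array spread, possibly of technical origin.

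UDP-glucuronosyltransferases of the 2B family sit in the endoplasmic reticulum and join glucuronic acid, taken from UDP-glucuronic acid, to steroids, bile acids and drugs, which makes them water soluble and lets them be exported. In the prostate the family is known for clearing androgens. UGT2B15 and UGT2B17 glucuronidate testosterone, dihydrotestosterone and the metabolites of dihydrotestosterone, and androgen treatment is known to lower both transcripts in LNCaP cells. UGT2B7 is a broad enzyme of liver and kidney that acts on opioids, other drugs and some steroids, UGT2B10 joins glucuronic acid to the nitrogen of amines such as nicotine, UGT2B28 acts on several steroids, and UGT2B11 is an enzyme with less well defined substrates. EZH2 is the methyltransferase within Polycomb repressive complex 2, which marks histone H3.

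On GRCh38.p14 the 6 genes spanned 757.9 kb of chromosome 4, which held 7 protein-coding genes in all. Their order along the chromosome was UGT2B17 (68537173 to 68576322), UGT2B15 (68646597 to 68670652), UGT2B10 (68815994 to 68832023), UGT2B7 (69051375 to 69112987), UGT2B11 (69199951 to 69224984) and UGT2B28 (69280475 to 69295050). RefSeq promoter windows of 300 bases, from 250 before to 50 after an annotated start, were matched for 4 of the 6 genes, UGT2B15, UGT2B10, UGT2B7 and UGT2B11. The 250 bases before the start are shown for a member of each response class described further on: UGT2B15 (chr4:68670653-68670902, minus strand), UGT2B10 (chr4:68815744-68815993, plus strand) and UGT2B11 (chr4:69214749-69214998, minus strand), each read 5′ to 3′ in the direction of the gene, with motif matches in capitals.
UGT2B15: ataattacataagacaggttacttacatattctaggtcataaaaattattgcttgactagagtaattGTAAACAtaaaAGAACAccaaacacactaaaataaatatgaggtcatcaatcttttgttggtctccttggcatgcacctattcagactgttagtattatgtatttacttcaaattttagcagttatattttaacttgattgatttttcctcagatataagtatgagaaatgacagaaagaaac
UGT2B10: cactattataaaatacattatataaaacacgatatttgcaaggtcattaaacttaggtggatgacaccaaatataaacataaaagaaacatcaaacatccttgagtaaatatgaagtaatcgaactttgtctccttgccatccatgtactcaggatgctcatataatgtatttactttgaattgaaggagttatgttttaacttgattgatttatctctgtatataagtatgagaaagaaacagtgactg
UGT2B11: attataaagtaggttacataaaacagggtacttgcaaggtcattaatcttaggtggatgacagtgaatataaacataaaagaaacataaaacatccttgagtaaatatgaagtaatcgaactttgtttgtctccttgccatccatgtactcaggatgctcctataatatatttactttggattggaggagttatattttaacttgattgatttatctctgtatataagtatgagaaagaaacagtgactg
The windows of UGT2B10 and UGT2B11 were identical at 92.6% of 296 aligned bases, while UGT2B15 matched UGT2B11 at 80.1% of 281 and UGT2B10 at 79.1% of 277. The motif search covered 4 short motifs on both strands. The capitals in UGT2B15 mark AGAACA, a half-site of steroid hormone receptors, starting 172 bases before the start, and TGTTTAC, a forkhead motif, read on the opposite strand (GTAAACA) and starting 183 bases before it. The other motifs searched were GTTAAT, an HNF1 half-site, and TGACTCA, the AP-1 motif, and none of the 4 was found in the windows of UGT2B10, UGT2B7 or UGT2B11. Of all 35116 promoter windows in the table, 14.8% held AGAACA, 3.4% TGTTTAC, 6.9% GTTAAT and 4.9% TGACTCA on either strand. These are letters in a window and not binding sites.

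Between 19304 and 21653 of 47311 probes were detected on an array (40.8% to 45.8%), and precision is limited by how many arrays there were. All 8 luminal prostate markers measured, KRT8, KRT18, KLK3 and TMPRSS2 among them, were detected on all 24 arrays. siEZH2 lowered 4 of them and raised 1 in LNCaP, and lowered 2 in C4-2B. EPZ6438 raised 4 and lowered 0 in LNCaP, and raised 4 and lowered 1 in C4-2B. Of all named genes 24.7% were called with siEZH2 in LNCaP and 16.5% in C4-2B, and 5.20% and 13.4% with EPZ6438. The luminal rises with EPZ6438 in LNCaP and falls with siEZH2 in C4-2B dropped to 0 under some processing settings. Of the 5 basal markers SERPINB5 was detected on 23 arrays, ITGB4 on 9, KRT15 on 1 and KRT5 and KRT14 on none. SERPINB5 rose with siEZH2 by 0.89 ± 0.15 (log2, SE) in LNCaP and 0.78 ± 0.15 in C4-2B and with EPZ6438 by 0.98 ± 0.15 in C4-2B, and ITGB4 rose with siEZH2 in C4-2B by 0.72 ± 0.16. Of the 7 liver markers ALB was detected on all 24 arrays, TTR on 23, APOA1 on 17 and CYP3A4 on none, and TTR rose with siEZH2 in LNCaP by 1.16 ± 0.15 and with EPZ6438 by 0.70 ± 0.15 in LNCaP and 0.48 ± 0.15 in C4-2B. Of the 6 fibroblast markers VIM was detected on all arrays, COL1A1 on 21 and LUM on none, and VIM rose with siEZH2 by 0.50 ± 0.10 in LNCaP and 0.44 ± 0.10 in C4-2B (the C4-2B call was lost when arrays were centred on the median of all probes) and with EPZ6438 by 0.51 ± 0.10 in LNCaP. ALB, APOA1 and COL1A1 had no call in any treatment comparison. The part of these markers in the UGT2B differences was not tested. The labels were checked with EZH2, whose main probe read 6.71, 6.73 and 6.73 (log2 intensity) in LNCaP with siControl and 5.73, 5.89 and 5.93 with siEZH2, a difference of −0.87 ± 0.16 (SE; limma, adjusted p = 0.000257). In C4-2B it read 7.58, 7.25 and 7.76 with siControl and 6.19, 6.85 and 6.50 with siEZH2, a difference of −1.02 ± 0.16 (limma, adjusted p = 0.000108). With EPZ6438 the difference of this EZH2 probe was −0.12 ± 0.16 in LNCaP and −0.00 ± 0.16 in C4-2B, neither past the threshold (limma, adjusted p = 0.785 and 0.997). EZH2 probe ILMN_1652913 gave −0.58 ± 0.22 and −0.56 ± 0.22 there, and ILMN_2364529 −0.26 ± 0.13 and 0.02 ± 0.13, also without a call. Between lines the main EZH2 probe was higher in C4-2B by 0.81 ± 0.16 with siControl (limma, adjusted p = 0.000224). With DMSO that difference was 0.04 ± 0.16, without a call. All levels below are log2 intensities after background correction and quantile normalisation, a difference is a difference of 2 group means on that scale with its SE from 1 fit to all arrays, and a level of 1 probe cannot be set against that of another. In these bulk samples fewer cells of a kind and less RNA per cell cannot be told apart.

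The probes of a gene differed in brightness. UGT2B17 had 4 probes on the array, of which 3 were kept and the other, ILMN_1801263, was detected on 0 of 24 arrays. UGT2B15 and UGT2B11 had 2 each, and UGT2B10, UGT2B28 and UGT2B7 had 1 each. The 5 main probes (the brightest of each gene) and the second probes ILMN_1752214 of UGT2B17 and ILMN_1810233 of UGT2B11 were detected on all 24 arrays. ILMN_2373670 of UGT2B17 and ILMN_1739624 of UGT2B15 were dim and detected on 15 arrays each. The probe of UGT2B7 was detected on 2 of 24 arrays and stayed between 4.18 and 4.62 in all groups, so it was not kept and UGT2B7 had no measured response here.

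**Figure D1:**
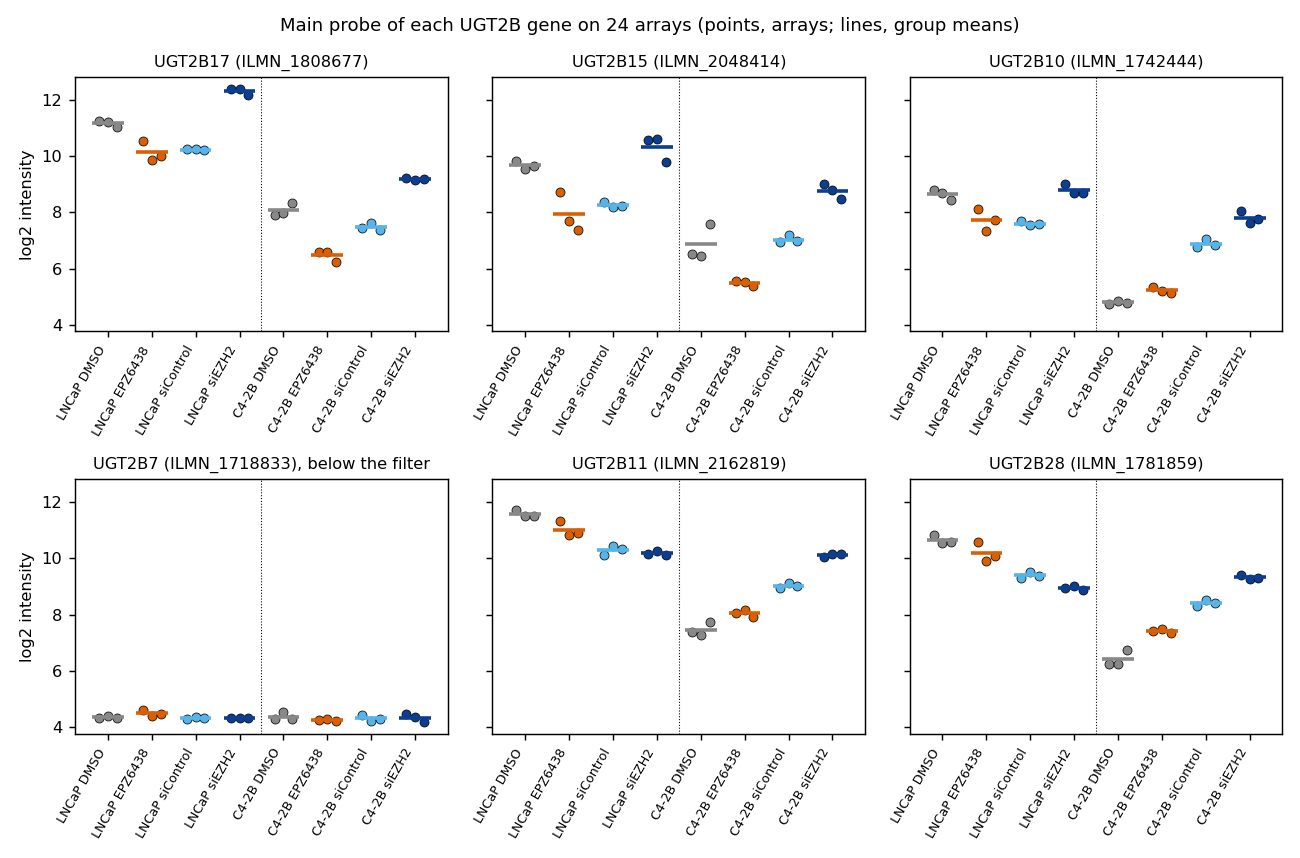
Log2 intensity (vertical axis) of the main probe of each of the 6 UGT2B genes on the 24 arrays, by group (horizontal axis), with points for arrays and lines for group means. UGT2B17 and UGT2B15 are highest in LNCaP with siEZH2 and lowest in C4-2B with EPZ6438, UGT2B11 and UGT2B28 are highest in LNCaP with DMSO and lowest in C4-2B with DMSO, and UGT2B7 stays between 4.18 and 4.62.

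UGT2B17, the androgen-conjugating enzyme, followed the pattern it was chosen for in both lines. In LNCaP its main probe read 10.23, 10.23 and 10.21 with siControl and 12.38, 12.36 and 12.15 with siEZH2, and 11.23, 11.19 and 11.03 with DMSO and 10.53, 9.86 and 9.98 with EPZ6438. All siEZH2 arrays lay above all siControl arrays, and all EPZ6438 arrays below all DMSO arrays. The siEZH2 difference was 2.07 ± 0.14, or 4.21-fold, and the EPZ6438 difference −1.02 ± 0.14. In C4-2B the levels were lower, at 7.45, 7.61 and 7.38 with siControl, 9.22, 9.13 and 9.18 with siEZH2, 7.92, 7.95 and 8.32 with DMSO, and 6.59, 6.57 and 6.23 with EPZ6438. The groups again did not overlap, with differences of 1.70 ± 0.14 for siEZH2 and −1.60 ± 0.14 for EPZ6438. The second probe, ILMN_1752214, gave 1.67 ± 0.16 and 1.48 ± 0.16 for siEZH2 and −1.17 ± 0.16 and −1.54 ± 0.16 for EPZ6438 in LNCaP and C4-2B. The dim probe ILMN_2373670 gave 1.87 ± 0.12 and −1.34 ± 0.12 in LNCaP. In C4-2B that probe was detected on 2 of 3 siEZH2 arrays, 0 siControl arrays, 1 DMSO array and 0 EPZ6438 arrays, so the size of its response there is a bound, at least 1.17-fold higher with siEZH2.

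UGT2B15, which shares androgen substrates with UGT2B17, moved in the same directions with more spread between arrays. In LNCaP its main probe read 8.36, 8.19 and 8.22 with siControl, 10.55, 10.59 and 9.77 with siEZH2, 9.80, 9.53 and 9.65 with DMSO, and 8.73, 7.68 and 7.36 with EPZ6438. Neither treatment group overlapped its control, and replicate 1 of EPZ6438 stood nearest to DMSO. The differences were 2.05 ± 0.28 for siEZH2 and −1.73 ± 0.28 for EPZ6438. In C4-2B the probe read 6.92, 7.19 and 6.96 with siControl, 8.99, 8.80 and 8.47 with siEZH2, 6.53, 6.46 and 7.59 with DMSO, and 5.56, 5.52 and 5.36 with EPZ6438. Replicate 3 of DMSO was the highest of its group by about 1 log2 unit, and the EPZ6438 arrays were all lower than the DMSO arrays. The differences were 1.73 ± 0.28 and −1.38 ± 0.28, and without that DMSO array the EPZ6438 difference was −1.01. The dim second probe, ILMN_1739624, gave 1.58 ± 0.21 and −0.83 ± 0.21 in LNCaP. The probe was detected on 1 of 3 LNCaP EPZ6438 arrays, where its difference ran from −0.83 to −0.27 across processing settings. In C4-2B it gave 0.69 ± 0.21 with siEZH2, where it was detected on 3 siEZH2 arrays and 1 siControl array, and it was at background in the other experiment, detected on 1 DMSO array and 0 EPZ6438 arrays.

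UGT2B10, the amine-conjugating enzyme, behaved like UGT2B17 and UGT2B15 in LNCaP and differently in C4-2B with the inhibitor. Its probe read 7.68, 7.53 and 7.57 with siControl and 8.99, 8.68 and 8.67 with siEZH2 in LNCaP, and 8.78, 8.68 and 8.45 with DMSO and 8.12, 7.33 and 7.71 with EPZ6438. All siEZH2 arrays were higher and all EPZ6438 arrays lower than their controls, by 1.19 ± 0.15 and −0.92 ± 0.15. In C4-2B it read 6.78, 7.03 and 6.84 with siControl and 8.04, 7.62 and 7.75 with siEZH2, a difference of 0.92 ± 0.15 without overlap. With the compound the direction went against the rule. The arrays read 4.76, 4.86 and 4.78 with DMSO and 5.33, 5.22 and 5.13 with EPZ6438, all higher, by 0.42 ± 0.15. These are the dimmest detected levels of this probe, at unnormalised intensities of 85.8 to 110.3, and the difference was 0.13 without background correction and 0.21 with an offset of 50 in place of 16.

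UGT2B28 went against the rule in 2 of its 4 comparisons. UGT2B11 did so less clearly, since its main probe overlapped with siEZH2 in LNCaP and its probes differed. In LNCaP the main UGT2B11 probe read 10.12, 10.44 and 10.33 with siControl and 10.17, 10.27 and 10.10 with siEZH2, which overlapped, and UGT2B28 read 9.30, 9.50 and 9.37 with siControl and 8.94, 9.03 and 8.87 with siEZH2, all lower. The differences were −0.12 ± 0.13 for UGT2B11, which turned to 0.18 when arrays were centred on the median of all probes, and −0.45 ± 0.14 for UGT2B28, which became −0.15 under that scaling. That scaling moved the median of all probes in this comparison from 0.01 to 0.12, and in C4-2B with siEZH2 to 0.15. The second UGT2B11 probe gave 0.42 ± 0.19 in LNCaP with all siEZH2 arrays higher, so the probes of UGT2B11 disagreed in sign. In C4-2B both genes were higher with siEZH2 on every array. UGT2B11 read 8.93, 9.12 and 9.02 with siControl and 10.05, 10.16 and 10.15 with siEZH2, a difference of 1.09 ± 0.13 (1.16 ± 0.19 for the second probe), and UGT2B28 read 8.30, 8.51 and 8.40 and then 9.39, 9.27 and 9.31, a difference of 0.92 ± 0.14.

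EPZ6438 had opposite signs in the lines for these genes. In LNCaP UGT2B11 read 11.71, 11.49 and 11.49 with DMSO and 11.31, 10.83 and 10.89 with EPZ6438, all lower, by −0.55 ± 0.13, and the second probe gave −0.55 ± 0.19 with overlap. UGT2B28 read 10.82, 10.52 and 10.58 with DMSO and 10.56, 9.89 and 10.08 with EPZ6438, a difference of −0.46 ± 0.14 in which replicate 1 of EPZ6438 lay among the DMSO arrays. In C4-2B UGT2B28 read 6.23, 6.24 and 6.75 with DMSO and 7.41, 7.50 and 7.34 with EPZ6438. All EPZ6438 arrays were higher, by 1.01 ± 0.14 or 2.02-fold, the opposite of UGT2B17 and UGT2B15 in the same RNA. UGT2B11 read 7.37, 7.26 and 7.73 and then 8.06, 8.15 and 7.91, all higher by 0.58 ± 0.13, while its second probe gave 0.21 ± 0.19 with overlapping arrays, and 0.47 without replicate 3 of DMSO.

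**Figure D2:**
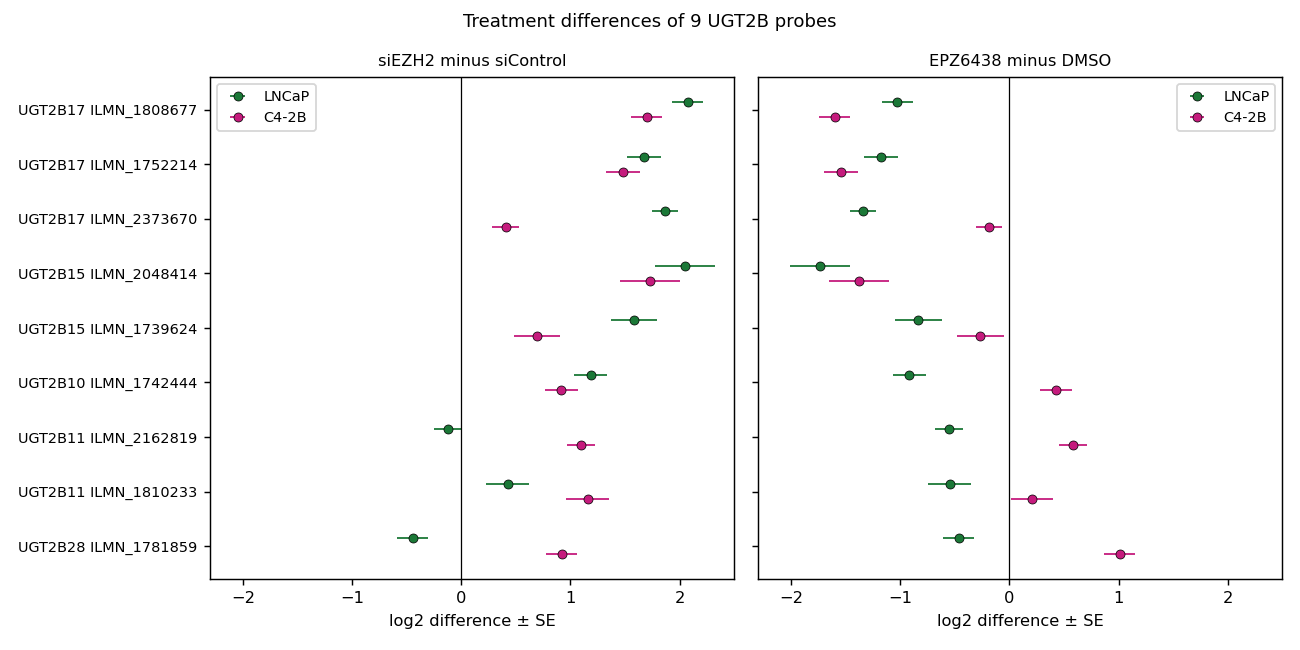
Log2 differences with SE (horizontal axes) of the 9 kept UGT2B probes (vertical axis) for siEZH2 minus siControl, left, and EPZ6438 minus DMSO, right, in LNCaP and C4-2B. All 9 probes are above 0 with siEZH2 in C4-2B and below 0 with EPZ6438 in LNCaP. With siEZH2 in LNCaP UGT2B28 and the main UGT2B11 probe are below 0 while the second UGT2B11 probe is above it, and with EPZ6438 in C4-2B UGT2B10, UGT2B28 and both UGT2B11 probes are above 0. The dim probes ILMN_2373670 and ILMN_1739624 are near background in C4-2B.

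Over the 9 kept probes the siEZH2 difference in LNCaP was positive for 7 and negative for 2, with 7 probes whose arrays were all higher and 1 all lower, a median of 1.58 and a median of all probes of 0.01. Of all probes 19.9% were called in that comparison in either direction. With siEZH2 in C4-2B all 9 probes were higher on every array (13.0% of all probes called). The dim probe ILMN_2373670 gave only a bound there, and the other 8 lay between 0.69 and 1.73, with a median of 1.09 over the 9. With EPZ6438 in LNCaP all 9 differences were negative, between −1.73 and −0.46, and 7 probes had all arrays lower (3.94% called). Among these 7 is ILMN_1739624, which was near background with EPZ6438. Without replicate 1 of EPZ6438 in LNCaP, the highest of its group for all 5 main probes, the differences of the main probes were −2.14 for UGT2B15, −1.23 for UGT2B17, −1.11 for UGT2B10, −0.70 for UGT2B11 and −0.66 for UGT2B28. With EPZ6438 in C4-2B the main probes of UGT2B17 and UGT2B15 and ILMN_1752214 of UGT2B17 were lower on every array, 3 probes were higher on every array and 1 overlapped (10.2% called). The other 2, ILMN_2373670 and ILMN_1739624, were detected on 0 EPZ6438 arrays and 1 DMSO array each, so their order there is not read. These 4 comparisons chose the genes, so the counts describe the choice and were not tested, and probes of 1 gene are not independent. The share of all probes whose arrays did not overlap was not computed, here, between lines or for siControl against DMSO. The called shares are a different measure from these counts. siEZH2 and EPZ6438 were compared with different control arrays, and no array served both.

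The difference between the lines was not itself used to choose the genes, and it was large. Its DMSO and siControl arrays also served in the comparisons that chose them, so the p-values below are not independent of the choice. In DMSO cultures all 9 probes fell in C4-2B against LNCaP (limma, Benjamini-Hochberg over 26278 probes), with every C4-2B array below every LNCaP array, where 31.4% of all probes were called and 15.8% were called lower. UGT2B28 was lower by −4.24 ± 0.14 (18.9-fold, adjusted p = 4.07e-17), with LNCaP between 10.52 and 10.82 and C4-2B between 6.23 and 6.75. UGT2B11 was lower by −4.11 ± 0.13 (17.3-fold, adjusted p = 1.27e-17), and UGT2B10 by −3.84 ± 0.15 (14.3-fold, adjusted p = 5.56e-16). The androgen-conjugating pair had smaller differences, UGT2B17 by −3.09 ± 0.14 (8.49-fold, adjusted p = 1.19e-14) and UGT2B15 by −2.80 ± 0.28 (6.97-fold, adjusted p = 1.59e-08). UGT2B10 was near background in C4-2B with DMSO, and its difference ran from −4.58 to −2.23 across processing settings. UGT2B17 ran from −3.31 to −2.79, so the order of these 2 genes depends on the processing. The smallest difference was that of the dim UGT2B15 probe, −0.92 ± 0.21 (adjusted p = 0.0016), which did not pass the threshold when arrays were centred on a median or when the authors' processed table was used. When arrays were centred on the median of all probes the split of calls was 1103 higher and 2158 lower, against 4112 and 4148, and the other 8 UGT2B probes had differences between −4.38 and −2.46, all called.

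In siControl cultures the same comparison gave smaller differences for all 9 probes, and UGT2B17 came closest to its DMSO value. Of the 9 probes 8 fell (limma), where 37.7% of all probes were called and 18.6% were called lower, and all C4-2B arrays lay below all LNCaP arrays for each of the 9. The share of all probes whose arrays did not overlap was not computed for either line comparison. ILMN_2373670 of UGT2B17 was detected on 0 of 3 C4-2B arrays with siControl, so its difference is a bound, at least 4.69-fold lower. UGT2B17 was lower by −2.74 ± 0.14 (6.70-fold, adjusted p = 7.12e-14), UGT2B11 by −1.27 ± 0.13 (2.41-fold, adjusted p = 1.7e-08), UGT2B15 by −1.23 ± 0.28 (2.35-fold, adjusted p = 0.000835), UGT2B28 by −0.99 ± 0.14 (1.98-fold, adjusted p = 4.42e-06) and UGT2B10 by −0.71 ± 0.15 (1.63-fold, adjusted p = 0.000442). The dim UGT2B15 probe had a difference of −0.33 ± 0.21 (adjusted p = 0.25) and was detected on 1 of 3 C4-2B arrays, so its order there is not read. Whether the line differences of DMSO and siControl cultures differ was not tested for these genes, since the control arrays are also those of the comparisons that chose them.

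The gap between the 2 line comparisons lies in the control cultures, which belong to separate experiments. In LNCaP all 9 probes were lower with siControl than with DMSO on every array, by between −1.40 and −0.27 (20.4% of all probes called), and UGT2B15, at −1.40 ± 0.28, and UGT2B11, at −1.27 ± 0.13, were the furthest apart among main probes. In C4-2B UGT2B10 was higher with siControl by 2.08 ± 0.15, UGT2B28 by 2.00 ± 0.14 and UGT2B11 by 1.57 ± 0.13, all without overlap, while UGT2B17 was lower by −0.58 ± 0.14 (32.5% called). The UGT2B10 value, with DMSO levels near background, ran from 0.93 to 2.68 across processing settings. UGT2B15 overlapped there, at 0.17 ± 0.28, and its values with arrays left out ran from −0.12, without replicate 2 of every group, to 0.56. These are descriptions with no test, and transfection and the handling of the separate experiments cannot be told apart. For comparison, the siEZH2 differences of UGT2B10, UGT2B11 and UGT2B28 in C4-2B lay between 0.92 and 1.09 for the main probes.

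**Figure D3:**
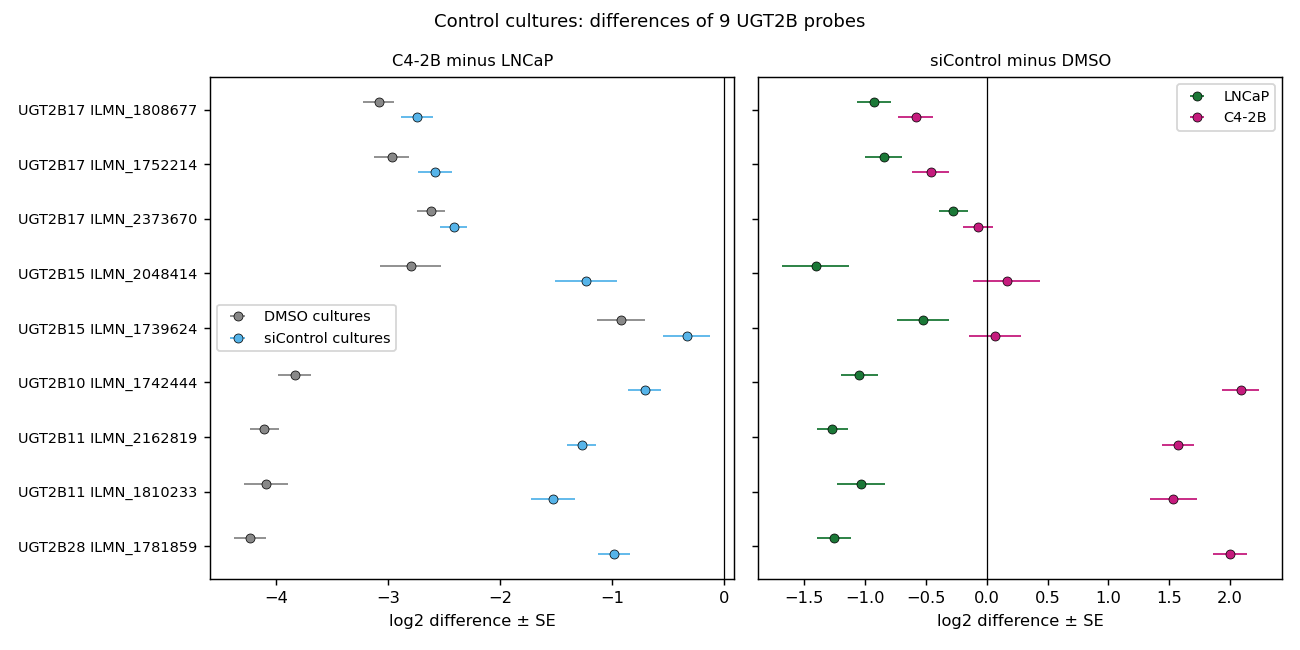
Log2 differences with SE (horizontal axes) of the 9 kept UGT2B probes (vertical axis) between control cultures: C4-2B minus LNCaP in DMSO and in siControl cultures, left, and siControl minus DMSO in each line, right. All 9 probes are lower in C4-2B in both cultures, and UGT2B10, UGT2B11 and UGT2B28 are lower with siControl than with DMSO in LNCaP and higher in C4-2B.

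The order of the groups restates the same classes from the same intensities and is not separate support for them. UGT2B17 was highest in LNCaP with siEZH2 (12.30 ± 0.13, SD, n = 3), followed by LNCaP with DMSO (11.15 ± 0.11), then LNCaP with siControl (10.22 ± 0.01) and with EPZ6438 (10.12 ± 0.36), which overlapped, and the 4 C4-2B groups from siEZH2 (9.18 ± 0.04) through DMSO (8.06 ± 0.22) and siControl (7.48 ± 0.12) to EPZ6438 (6.46 ± 0.20). Every LNCaP group was thus above every C4-2B group. UGT2B15 began with LNCaP siEZH2 (10.30 ± 0.46) and LNCaP DMSO (9.66 ± 0.14), which overlapped, had C4-2B siEZH2 (8.75 ± 0.26) above LNCaP siControl (8.25 ± 0.09), and ended with C4-2B EPZ6438 (5.48 ± 0.10). UGT2B11 ran from LNCaP DMSO (11.56 ± 0.13) to C4-2B DMSO (7.45 ± 0.24), with LNCaP siControl, LNCaP siEZH2 and C4-2B siEZH2 overlapping between 10.30 and 10.12. UGT2B28 also ran from LNCaP DMSO (10.64 ± 0.16) to C4-2B DMSO (6.41 ± 0.30), with LNCaP siControl (9.39 ± 0.10) overlapping C4-2B siEZH2 (9.32 ± 0.06). UGT2B10 was highest in LNCaP siEZH2 (8.78 ± 0.18), which overlapped LNCaP DMSO (8.64 ± 0.17), and lowest in C4-2B DMSO (4.80 ± 0.05).

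Pearson's r between main probes, given as a description of the same intensities over arrays that share the 8 groups and the line difference, had the same arrangement. UGT2B11 and UGT2B28 had an r of 0.99 over 24 arrays, 0.98 over the 12 LNCaP arrays and 0.99 over the 12 C4-2B arrays. UGT2B15 and UGT2B17 had an r of 0.94, 0.95 and 0.95. Between the pairs, UGT2B17 and UGT2B28 had an r of 0.68 over all arrays and −0.37 within LNCaP. UGT2B10 changed partner between lines: its r with UGT2B15 was 0.93 in LNCaP and 0.77 in C4-2B, and with the main UGT2B11 probe 0.18 in LNCaP and 0.98 in C4-2B (0.62 and 0.97 for the second UGT2B11 probe). Cross-hybridisation between probes of like sequence was not tested, since no probe sequences were used here.

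**Figure D4:**
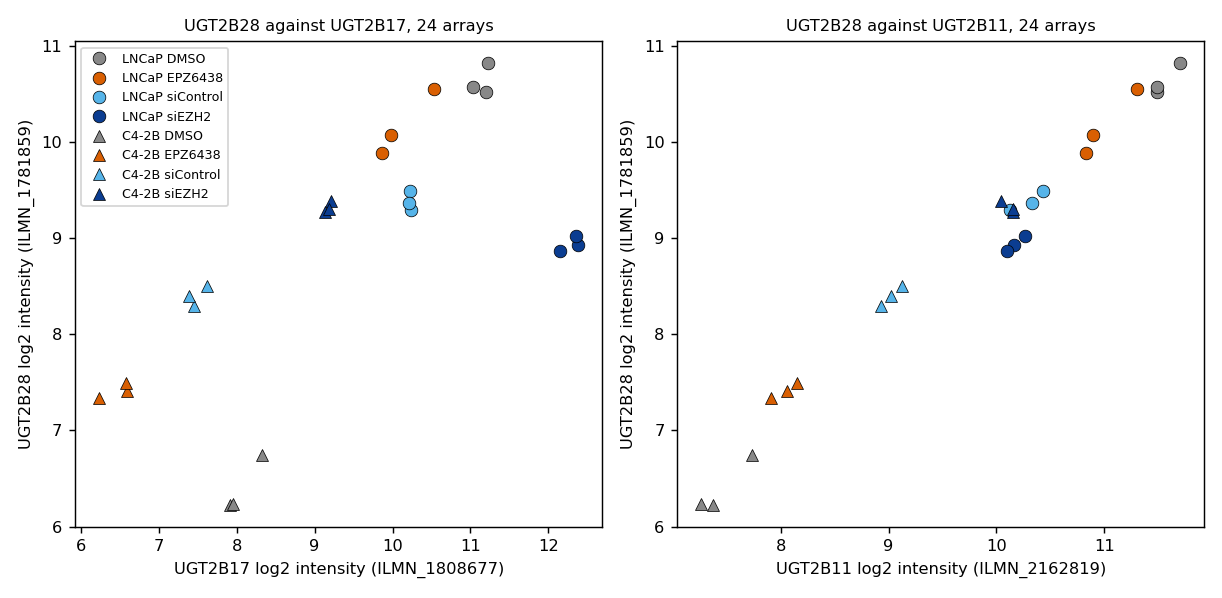
Log2 intensity of UGT2B28 (vertical axes) against UGT2B17, left, and UGT2B11, right, on the 24 arrays, with circles for LNCaP, triangles for C4-2B and colours for the treatment. UGT2B28 follows UGT2B11 along 1 line (r of 0.99), while LNCaP siEZH2 arrays stand at the right of the plot against UGT2B17, with the highest UGT2B17 and a UGT2B28 level below LNCaP siControl.

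The gene lists below were chosen with earlier results of these data known, so their counts are descriptions and not independent support. The lists of related genes that follow are read against the share called among all 13789 named genes, each taken by its brightest kept probe. That share was 24.7% with siEZH2 in LNCaP and 16.5% in C4-2B, 5.20% with EPZ6438 in LNCaP and 13.4% in C4-2B, and 38.0% and 45.2% between lines in DMSO and siControl cultures. Of the 16 other UDP-glycosyltransferase genes listed, 7 were measured, among which the UGT2B relatives UGT2A1, UGT2A3 and UGT2B4 were dim. With siEZH2 in LNCaP limma called 0 of the 7, with 2 at an unadjusted p under 0.05, and with EPZ6438 in LNCaP 0, with 1 at an unadjusted p under 0.05. UGT8, which makes galactosylceramide, rose in C4-2B with siEZH2 (0.60 ± 0.14, adjusted p = 0.00364) and with EPZ6438 (0.58 ± 0.14, adjusted p = 0.00536, a call lost when arrays were centred on the median of all probes), and was higher in C4-2B than LNCaP by 1.91 ± 0.14 in DMSO and 2.77 ± 0.14 in siControl cultures. UGT1A1, the bilirubin-conjugating enzyme, was lower in C4-2B by −1.60 ± 0.13 and −0.73 ± 0.13. Its C4-2B means, 4.21 with DMSO and 4.20 with siControl, lay at background, so these sizes are limited by it. The LNCaP means were 5.82 and 4.93. UGT2A1, UGT2A3 and UGT2B4, the other measured genes of the 2A and 2B families, were detected on 3 or 4 arrays each and had no call in any of the 6 treatment and line comparisons.

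Genes that supply UDP-glucuronic acid, or transport or cleave glucuronides, were measured for 9 of 13 listed. siEZH2 raised 3 and lowered 2 in LNCaP, and raised 3 and lowered 1 in C4-2B. SLC35D2, a nucleotide sugar transporter of the Golgi, rose by 0.75 ± 0.12 and 0.63 ± 0.12, GUSB, the lysosomal enzyme that cleaves glucuronides, by 0.40 ± 0.10 and 0.34 ± 0.10, and PGM1, which makes glucose 1-phosphate, by 0.28 ± 0.10 and 0.59 ± 0.10. UGDH, which oxidises UDP-glucose to UDP-glucuronic acid, fell by 0.45 ± 0.13 in C4-2B with siEZH2, had −0.28 in LNCaP without a call, and was lower in C4-2B than LNCaP by −0.57 ± 0.13 in DMSO and −1.14 ± 0.13 in siControl cultures. With EPZ6438 0 of the 9 were called by limma in LNCaP, with 2 at an unadjusted p under 0.05, and in C4-2B 2 rose, PGM1 by 0.43 ± 0.10 and the glucuronide exporter ABCC3 by 0.39 ± 0.10. When arrays were centred on the median of all probes siEZH2 raised 1 and lowered 0 in LNCaP and raised 2 and lowered 0 in C4-2B, and EPZ6438 in C4-2B had 0 calls, as it had when only those 2 groups were fitted. The medians of the list were 0.17, 0.09, 0.05 and 0.09 in the 4 treatment comparisons (siEZH2 in LNCaP and C4-2B, then EPZ6438), against 0.02, 0.03, 0.01 and 0.00 for all genes.

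Among 26 measured genes of androgen and steroid synthesis and interconversion, siEZH2 raised 5 and lowered 5 in LNCaP and 1 and 1 in C4-2B, while EPZ6438 raised 2 and lowered 0 in LNCaP and had 0 higher and 1 lower in C4-2B. The 2 of 26 with siEZH2 in C4-2B and the 1 of 26 with EPZ6438 there lie below the share of all genes called. With arrays centred on the median of all probes siEZH2 raised 4 and lowered 2 in LNCaP while C4-2B had 3 higher and 0 lower. Centred on probes detected on all arrays, 1 rose and 5 fell in LNCaP, against 0 and 1 in C4-2B. CYP3A5, which oxidises testosterone, rose with siEZH2 in LNCaP by 1.62 ± 0.19 and with EPZ6438 by 0.98 ± 0.19. AKR1C2, which reduces dihydrotestosterone, fell with siEZH2 in LNCaP by 1.37 ± 0.145 and AKR1C4 by 1.22 ± 0.17, while AKR1C3, which reduces androstenedione to testosterone, rose with siEZH2 (0.52 ± 0.12) and with EPZ6438 (1.01 ± 0.12) in LNCaP. The AKR1C transcripts are alike in sequence, so their probes may share signal. Between lines 10 of the 26 were lower and 3 higher in C4-2B with DMSO, and 10 lower and 4 higher with siControl, AKR1C2 by −2.87 and −3.58 among them, beside 38.0% and 45.2% of all genes called. Of 9 measured genes of steroid sulfation siEZH2 raised 2 and lowered 0 in LNCaP (SULT1A3 by 0.62 ± 0.14 and PAPSS1 by 0.31 ± 0.10), 3 rose in C4-2B, and with EPZ6438 0 were called by limma in LNCaP (3 at an unadjusted p under 0.05) and 2 rose in C4-2B (SLC35B2 by 0.57 ± 0.12 and SUMF1 by 0.45 ± 0.13). The 2 of 9 in LNCaP is near the share of all genes called, the siEZH2 calls fell to 1 in LNCaP and 0 in C4-2B with arrays centred on the median of all probes and to 0 and 1 centred on probes detected on all arrays, and the first of these scalings also left 0 with EPZ6438 in C4-2B.

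Transcription factors known to act on UGT2B genes were measured for 10 of 20 listed. With siEZH2 in LNCaP 3 fell, CEBPA by 0.52 ± 0.14, NFE2L2 by 0.51 ± 0.10 and FOXA1 by 0.37 ± 0.10, and none rose, and in C4-2B limma called 0, with 3 at an unadjusted p under 0.05. The 3 of 10 is near the share of all genes called, and 0 were called when arrays were centred on the median of all probes. With EPZ6438 in LNCaP GATA2 rose by 0.56 ± 0.16 (adjusted p = 0.0447), where 0 rose under either centring, and in C4-2B CEBPB fell by 1.53 ± 0.13 and NFE2L2 by 0.44 ± 0.10. CEBPB was also higher in C4-2B than LNCaP, by 1.90 ± 0.13 with DMSO and 0.46 ± 0.13 with siControl.

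Genes that androgen induces in prostate cells were mostly lower with siEZH2 in LNCaP. Of 22 measured, 19 fell and 0 rose with siEZH2 in LNCaP (median −1.21 against 0.02 for all genes), led by FKBP5 at −2.07, HERC3 at −1.74 and SLC45A3 at −1.56, and 9 fell and 0 rose in C4-2B (median −0.23), led by C1orf116 at −1.39. With EPZ6438 9 rose and 0 fell in LNCaP (median 0.45), with PMEPA1 at 0.95 and KLK2 at 0.78, and 13 rose and 0 fell in C4-2B (median 0.57), with TRPM8 at 1.63, MAF at 1.48 and KLK2 at 1.21. When arrays were centred on the median of all probes, 13 fell with siEZH2 in LNCaP, 1 fell and 1 rose in C4-2B, 0 were called with EPZ6438 in LNCaP and 4 rose in C4-2B, and 0 were called with EPZ6438 when only the 2 LNCaP groups were fitted. Of the 7 measured genes that androgen represses, 3 rose and 0 fell with siEZH2 in LNCaP (OPRK1 by 1.62 ± 0.11, ACKR3 by 1.61 ± 0.10 and BCHE by 1.31 ± 0.13) and 2 rose in C4-2B (ACKR3 by 0.95 ± 0.10 and BCHE by 0.58 ± 0.13). With EPZ6438 1 rose and 1 fell in LNCaP, and 2 rose and 2 fell in C4-2B, where BCHE fell by 0.45 ± 0.13 and ACKR3 rose by 0.64 ± 0.10, and centring on the median of all probes left 0 of these EPZ6438 calls. The part of androgen signalling in the UGT2B differences was not tested.

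The androgen-induced genes also moved with the control cultures. In DMSO cultures 3 of 22 were higher and 10 lower in C4-2B (median −0.23), while in siControl cultures 0 were higher and 20 lower (median −1.85), with KLK3 at −4.14, TRPM8 at −4.14 and TMPRSS2 at −4.13. With siControl against DMSO 1 was higher and 15 lower in C4-2B (median −1.15) and 10 higher and 1 lower in LNCaP (median 0.24). UGT2B10, UGT2B11 and UGT2B28 went the other way from this list in both lines, higher with siControl in C4-2B and lower in LNCaP, as the values above show. UGT2B17 was lower with siControl in both lines, by −0.58 ± 0.14 in C4-2B, the direction of this list there. UGT2B15 overlapped in C4-2B and was lower in LNCaP. Of the 7 measured androgen-repressed genes 4 were lower with siControl in C4-2B and 0 higher (median −1.53). In LNCaP 2 of them were higher and 0 lower (median 0.12). Of all probes 32.5% were called in C4-2B and 20.4% in LNCaP. KLK3 and TMPRSS2 are also luminal markers, of which 6 of 8 were lower and 1 higher in C4-2B than LNCaP with siControl.

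**Figure D5:**
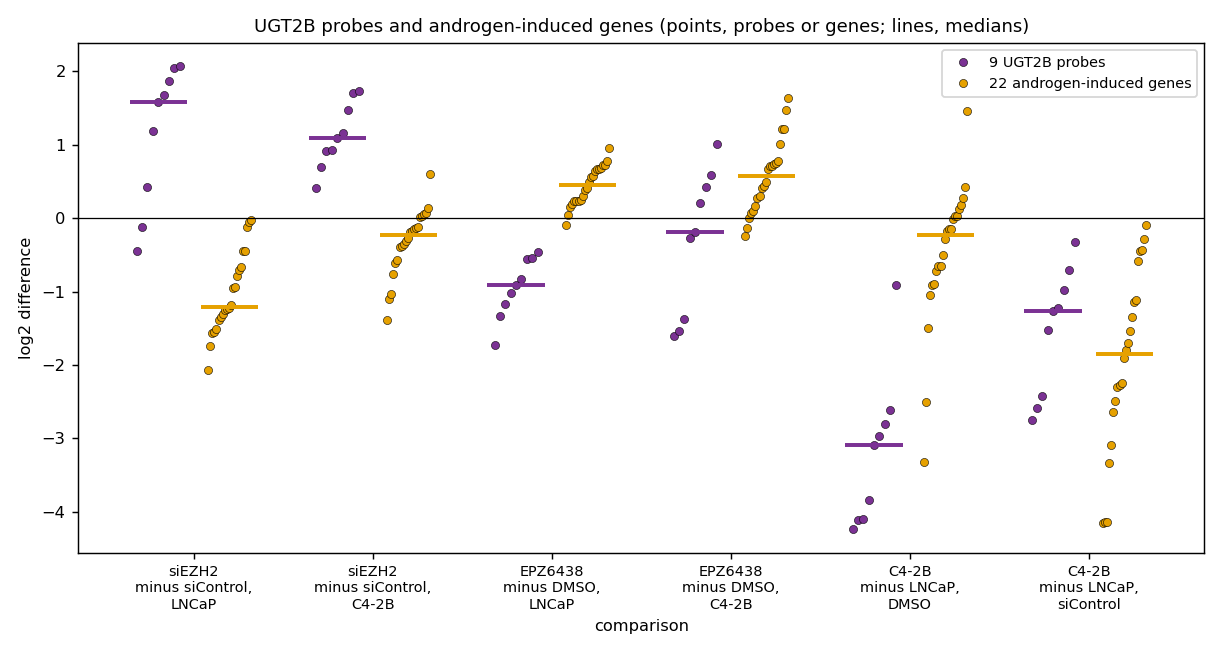
Log2 differences (vertical axis) of the 9 kept UGT2B probes and the 22 measured androgen-induced genes in 6 comparisons (horizontal axis), with points for probes or genes in order of size and lines for medians. The androgen-induced genes have medians of −1.21 and −0.23 with siEZH2 (LNCaP, then C4-2B) and of 0.45 and 0.57 with EPZ6438, and both sets have negative medians in the 2 comparisons of lines. The UGT2B genes were chosen by their values in the treatment comparisons, and the androgen-induced list with earlier results of these data known.

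The mean standardised profile of the 9 probes was set against 5846 named genes whose group means had an SD of at least 0.3, by Pearson's r over the 8 group means, as a description. The most similar were LONRF2 (r of 0.98), CEP43 (0.97), QKI (0.97), MTLN (0.97) and SAR1B (0.97), and the most opposed were TST (−0.98), ALDH5A1 (−0.98), EFS (−0.98), MACROD1 (−0.98) and MKRN10P (−0.96). The line differences of the 5 most similar genes in DMSO cultures lay between −1.14 and −0.68. LONRF2 differed by 0.24 with siEZH2 in each line, by −0.31 and −0.07 with EPZ6438 and by −0.98 between lines in DMSO cultures. ALDH5A1, which oxidises succinic semialdehyde, differed by 2.10 between lines in DMSO cultures and by −0.46 and −0.65 with siEZH2. The 8 group means share the line difference.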

How the data were processed

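RNA of 24 samples was hybridised to Illumina HT-12 arrays, 3 per group. The deposited table holds, per probe and array, a bead intensity that was not normalised and a detection p-value, exported by the authors from GenomeStudio per the submitters' processing notes. A second deposited table holds the authors' processed intensity, whose normalisation is not given in the sources used here. It served as an alternative, with a floor of 16.

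Intensities were background corrected with the detection p-values, quantile normalised and put on the log2 scale by neqc (offset 16) in limma 3.58.1 (R 4.3.3). Probes detected (p-value under 0.05) on at least 3 of 24 arrays were kept. Of 47311 probes, 30108 had 1 gene in the platform annotation, 8 several and 17195 none, and 30069 were matched by Entrez number. One limma model with a mean per group (16 residual and 7.55 prior degrees of freedom) gave differences, SEs and Benjamini-Hochberg adjusted p-values over 26278 probes, and adjusted p under 0.05 was called. The model was tested on simulated data. Promoters were aligned with Biopython 1.88.

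The members and gene lists were chosen with earlier results of these data known. All member probes are given. A gene of a list stands for its brightest kept probe, and up to 3 called genes of largest difference per list and comparison are named, with further values of those genes and some lesser ones chosen after their values were seen. Likeness was ranked as described in the text. Alternatives were other normalisations, filters and offsets, the processed table, 1 probe per gene, a replicate block, only the 2 groups compared, and arrays left out.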

Additional observations from a re-analysis of the deposited data

Results flagged for a closer look

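In 6 cases every treated array of one line moved one way against its control mean and every treated array of the other line the opposite way. The share of all probes that meet this rule was not computed. The rule uses the control mean, so groups can overlap, as the main UGT2B11 probe did with siEZH2 in LNCaP. With EPZ6438 the second UGT2B11 probe overlapped in both lines and UGT2B28 in LNCaP. The treatment difference of C4-2B minus that of LNCaP was not tested, because the treatment comparisons chose the genes. For EPZ6438 the difference of differences was 1.34 ± 0.21 (SE) for UGT2B10, from 0.42 in C4-2B and −0.92 in LNCaP. It was 1.14 ± 0.18 for the main UGT2B11 probe, from 0.58 and −0.55, and 0.75 ± 0.28 for its second probe, from 0.21 and −0.55. For UGT2B28 it was 1.47 ± 0.20, from 1.01 and −0.46. For siEZH2 it was 1.21 ± 0.18 for the main UGT2B11 probe, from 1.09 and −0.12, and 1.37 ± 0.20 for UGT2B28, from 0.92 and −0.45. The second UGT2B11 probe was positive in both lines with siEZH2, at 1.16 and 0.42, a difference of 0.73 ± 0.28, and the −0.12 of the main probe was 0.18 when arrays were centred on the median of all probes. Groups of 3 arrays are too small for a check of single arrays that stand apart.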

How the results depend on the processing

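Of the member values under the alternatives, 1249 kept direction and call or moved by less than the replicate spread, 78 moved further, 3 lost a call, 1 gained one and 0 called values changed sign. The 3 lost calls were those of the dim UGT2B15 probe ILMN_1739624 between lines in DMSO cultures, at −0.83 (centred on the median of all probes), −0.66 (centred on the median of probes detected on all arrays) and −0.68 (processed table). Uncalled differences turned sign for the main UGT2B11 probe with siEZH2 in LNCaP, for its second probe with EPZ6438 in C4-2B (−0.01 with arrays left out), and, with siControl against DMSO in C4-2B, for both UGT2B15 probes and UGT2B17 probe ILMN_2373670. Taking siEZH2 first (LNCaP, then C4-2B), EPZ6438 next in that same order of lines, and last the line comparison in DMSO and siControl cultures, 5241, 3417, 1035, 2679, 8260 and 9910 probes were called. Centred on the median of all probes the counts were 2358 (2003 higher, 355 lower, against 2621 and 2620), 1315 (1212 and 103, against 1684 and 1733), 31 (28 and 3, against 591 and 444), 359 (242 and 117, against 1400 and 1279), 3261 (1103 and 2158) and 4989 (2196 and 2793). Centred on probes detected on all arrays, EPZ6438 gave 232 and 1315, and with only the 2 groups 14 and 1419, where fewer arrays enter the fit. With 1 probe per gene, fewer features, the line counts were 5493 and 6468. The cause of the other changes was not tested. With arrays left out the counts ran from 2886 to 4967, 1197 to 3049, 80 to 2139, 1171 to 2506, 5542 to 7849 and 7291 to 9249. For EPZ6438 in LNCaP 2139 came without EPZ6438 replicate 1, 312 without EPZ6438 replicate 3, 500 without DMSO replicate 1, 423 without DMSO replicate 3, and 80 without replicate 3 of every group. For siEZH2 in C4-2B 2123 came without siControl replicate 2 and 2170 without siEZH2 replicate 3. Same-numbered arrays had correlations of deviations between −0.26 and 0.30, and no comparison had all 3 pairs over 0.1. With EPZ6438 2 of 3 pairs passed 0.1 in C4-2B, up to 0.30, and replicate 1 had 0.29 in LNCaP. The labels give a shared number and no pairing, and these values cannot exclude a shared run. With the replicate block the counts were 5248, 3423, 1024, 2699, 8246 and 9916, and no member call changed. For EZH2 and the named list genes, 2918 values kept their call, 266 lost it, 7 moved and 0 reversed. Signal near background limits the dim UGT2B15 and UGT2B17 probes, UGT2B10 in C4-2B and UGT2B7.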
